A study of Homo sapiens with 9 samples.

Results

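The protocadherin genes were followed in the colon adenocarcinoma cell line HT-29 across 3 doses of 5-aza-deoxycytidine (5-Aza), a cytidine analog that is built into DNA and traps DNA methyltransferases. The family was taken as every gene whose current symbol begins with PCDH in the platform's gene table. It comprised 58 of the 19785 features measured. Of these, 46 belonged to the clustered genes (12 alpha, 18 beta and 16 gamma features), 11 were non-clustered genes, and 1 was PCDH10-DT, a noncoding RNA gene beside PCDH10. A feature was 1 probe set per gene, the brightest over all arrays, or 1 of the 10 probe sets matched to several genes of the same cluster. A further 6 probe sets that a PCDH gene shared with a gene outside the clusters, or that 2 genes on different chromosomes shared, were counted only.

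Cultures received DMSO vehicle alone (0 µM), 5 µM 5-Aza or 10 µM 5-Aza. Each dose had 3 cultures, grown as monolayers of the same line, and the total RNA of each culture was measured on 1 Affymetrix U133 Plus array. The labels call the cultures biological replicates, so the p-values below measure the spread between these 3 cultures of 1 line. No depth applies to arrays, and their number, 3 per dose, limits the precision.

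Protocadherins are cadherin-repeat proteins of the cell surface that bind like molecules on neighbouring cells. The clustered genes stand in tandem arrays on chromosome 5. Each variable exon has its own promoter, and neurons switch on a few of these promoters at random, under the control of DNA methylation, CTCF and cohesin, which gives each neuron its own surface code. The non-clustered genes stand alone or in small groups, and several are known as targets of promoter methylation in tumours of the gut.

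Many of the clustered members carry like letters in their promoters, shown here so that the sequences of the genes described later can be set side by side. Within the RefSeq promoter windows (GRCh38.p14, from 250 bases before to 50 bases after the annotated start), the letters TGNCGCT, where N is any base (a match chosen after the windows were seen), were found on either strand in 32 of 47 clustered windows (68.1%). They were found in 3 of 11 non-clustered windows (27.3%) and in 10.9% of all 27305 windows. Its 4-letter core CGCT was in 46 of the 47 clustered windows, but also in 69.4% of all windows. The 7-letter match was most common in the beta windows (13 of 14) and the alpha windows (11 of 13), and was found in 8 of 20 gamma windows. The sequences around the match are given below for 5 clustered genes discussed later, 5′ to 3′ on the + strand, with the match in capitals.
PCDHB15: caacgcatggTGGCGCTgcaggctaag
PCDHB2: agacgcggggTGGCGCTgcagccttag
PCDHGA4: agactctgggTGTCGCTgttcaccaat
PCDHGA3: ggcctcttagTGTCGCTgttgaccact
PCDHGB5: gtgcagagctTGGCGCTccagatctcc

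PCDHB15 and PCDHB2 carry TGGCGCT followed by gca, whereas PCDHGA4 and PCDHGA3 carry TGTCGCT followed by gtt. The match began 68 bases before the annotated start in PCDHB15 (chr5:141245317-141245343 for the sequence shown) and 58 bases before it in PCDHB2 (chr5:141094547-141094573). In the gamma genes it began 48 bases before the start in PCDHGA4 (chr5:141354963-141354989), 49 in PCDHGA3 (chr5:141343770-141343796) and 44 in PCDHGB5 (chr5:141397893-141397919). A match is a description of the letters and was not tested as a binding site.

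The clustered windows were also poorer in CG dinucleotides, the sites of DNA methylation, than most promoters. The median was 7 CG in a clustered window (range 2 to 27), against 14 over all windows. The non-clustered windows had a median of 15. The windows of the 2 clustered genes with the smallest p-values at 5 µM are shown whole because 5-Aza acts on these sites. PCDHB15 (chr5:141245145-141245444, + strand) had 6 CG in 300 bases, and PCDHGA4 (chr5:141354771-141355070, + strand) had 2, with the TGNCGCT match in capitals.
PCDHB15: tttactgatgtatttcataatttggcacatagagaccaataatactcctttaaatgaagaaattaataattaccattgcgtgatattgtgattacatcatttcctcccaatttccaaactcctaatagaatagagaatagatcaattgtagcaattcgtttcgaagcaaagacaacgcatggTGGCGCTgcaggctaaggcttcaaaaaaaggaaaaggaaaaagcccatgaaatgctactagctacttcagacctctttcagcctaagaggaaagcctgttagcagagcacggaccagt
PCDHGA4: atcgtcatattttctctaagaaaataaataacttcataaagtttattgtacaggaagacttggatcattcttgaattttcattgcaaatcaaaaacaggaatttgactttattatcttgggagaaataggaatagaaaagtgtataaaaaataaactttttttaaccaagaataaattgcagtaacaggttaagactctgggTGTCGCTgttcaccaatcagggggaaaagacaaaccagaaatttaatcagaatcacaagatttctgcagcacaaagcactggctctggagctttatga

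Most of the family gave signals too low to test. A signal was read against the median of all probe sets on its array, called the floor here, and a feature was tested when it reached the floor on all 3 arrays of at least 1 dose. The floor was between 5.07 and 5.20 (log2) at 0 µM, between 5.41 and 5.42 at 5 µM and between 5.25 and 5.52 at 10 µM, so that its mean was 0.27 higher at 5 µM and 0.28 higher at 10 µM than in the vehicle. Only 2 of 58 protocadherin features (3.45%) were tested, against 59.4% of all features. A total of 47 (81.0%) lay below the floor on all 9 arrays, against 31.6% of all features. The share below the floor on every array was 83.3% for alpha, 88.9% for beta, 75.0% for gamma and 72.7% for non-clustered features. A signal below the floor does not show that a gene is silent.

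The 2 tested members were 1 non-clustered and 1 gamma gene, and these were also the only members above the floor on all 3 vehicle arrays. No alpha or beta feature reached the floor on all 3 arrays of any dose. The median of the vehicle means was 2.83 for alpha, 2.47 for beta, 2.75 for gamma and 2.88 for non-clustered features, against 6.22 for all features. At 5 µM the medians were 2.53, 3.07, 2.55 and 3.29 for the same 4 classes, against 6.65 for all features. At 10 µM they were 3.03, 2.88, 3.44 and 3.57, against 6.55. The medians of the 4 classes were thus close to each other and far below the array at every dose.

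**Figure D1:**
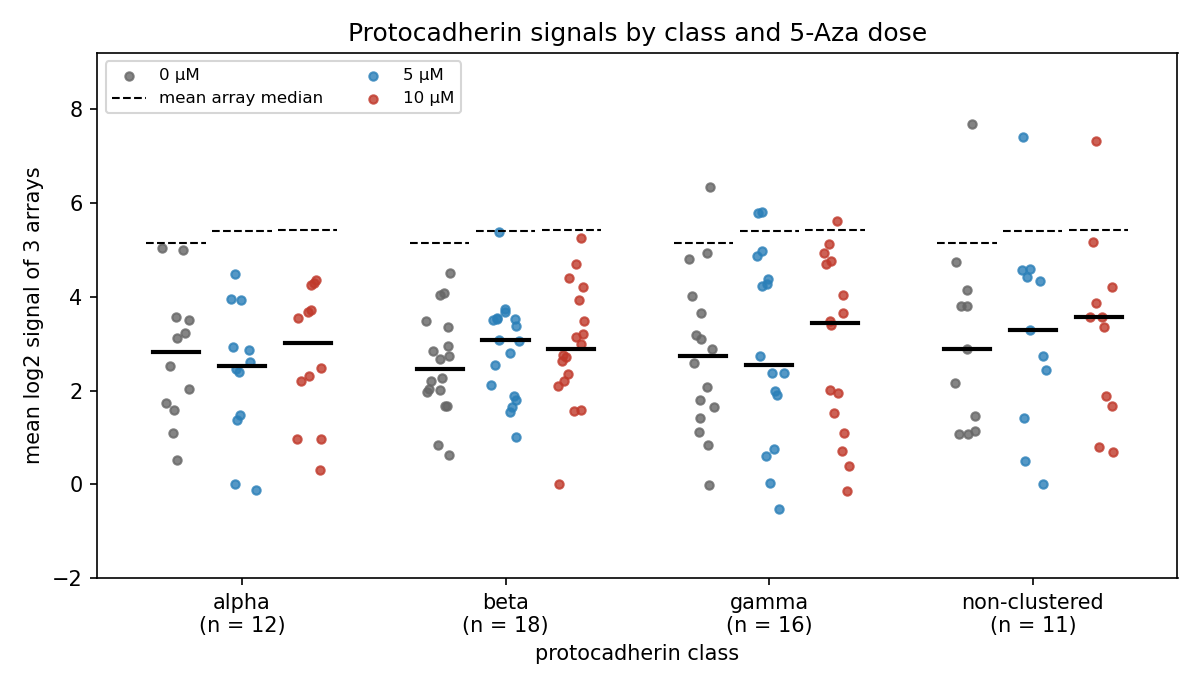
Mean log2 signal of the 3 arrays of a dose, 1 point per protocadherin feature, for alpha (n = 12), beta (n = 18), gamma (n = 16) and non-clustered (n = 11) features at 0, 5 and 10 µM 5-Aza. Solid bars are class medians and dashed bars are the mean array median of the dose. Nearly all points lie below the dashed bars, and the 1 point above 7 at each dose is PCDH1.

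The alpha cluster could be read as a whole, because 3 of its probe sets match all 15 alpha genes, which share their last exons. All 3 were below the floor on all 9 arrays. The gamma cluster could not be read in this way, because its broadest named probe set matched 7 genes. The gene table gave an own probe set for 6 of 15 alpha, 15 of 16 beta, 12 of 22 gamma and 11 of 13 non-clustered protein-coding genes that RefSeq lists. Of the remaining 22 genes, 16 were reached only by shared probe sets and 6 gamma genes had none in the gene table used here. Probe sets that the table leaves unnamed, for example those of shared gamma exons, were not analysed here.

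PCDH1, a non-clustered protocadherin of epithelia and airway that RefSeq places at chr5:141853090-141878410, had the highest signal of the family. Its log2 signals were 7.69, 7.61 and 7.76 at 0 µM, 7.54, 7.0 and 7.65 at 5 µM, and 7.71, 7.13 and 7.15 at 10 µM. The ranges of the doses overlapped, and all 9 values were above the floor. The log2 difference was -0.29 ± 0.21 (SE) at 5 µM against 0 µM (limma, adjusted p = 0.307), -0.36 ± 0.21 at 10 µM against 0 µM (limma, adjusted p = 0.206) and -0.07 ± 0.21 at 10 µM against 5 µM (limma, adjusted p = 0.845). With equal array medians the differences of PCDH1 against 0 µM were -0.56 at 5 µM (limma, adjusted p = 0.0497) and -0.64 at 10 µM (limma, adjusted p = 0.0332), both under 2-fold. The difference at 5 µM was -0.09 without 5 µM replicate 2. Its other probe set averaged 4.71, 3.69 and 4.18 at 0, 5 and 10 µM and reached the floor on 2 of 9 arrays.

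PCDHGB5, a gamma gene at chr5:141397947-141512975, was the other tested member. Its log2 signals were 6.68, 5.69 and 6.65 at 0 µM, 6.19, 5.52 and 5.62 at 5 µM, and 4.92, 5.48 and 6.41 at 10 µM. It was above the floor on 8 of 9 arrays, and the doses overlapped. The log2 difference was -0.56 ± 0.40 (SE) at 5 µM against 0 µM (limma, adjusted p = 0.31), -0.74 ± 0.40 at 10 µM against 0 µM (limma, adjusted p = 0.186) and -0.17 ± 0.40 at 10 µM against 5 µM (limma, adjusted p = 0.799). Its probe set carries the suffix _x_at, which marks probes that can also match other transcripts, and gamma genes share much of their sequence, so the signal cannot be assigned to PCDHGB5 alone. The difference at 10 µM against 0 µM was -0.39 without 10 µM replicate 1 and -1.14 without 10 µM replicate 3, and 0.01 with array weights and -2.06 with the actin control as a covariate.

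A gene was called when limma gave an adjusted p of at most 0.05 over all 11758 tested features and the groups differed more than 2-fold. No protocadherin was called, 0 of 2 in each comparison, while 9.92% of tested features were called at 5 µM against 0 µM, 7.59% at 10 µM against 0 µM and 2.35% at 10 µM against 5 µM. None of the tested members had an unadjusted p below 0.05 (limma), and the methods' t-test and a SAM statistic called 0 of them too. With 2 members tested, these counts say little about the family.

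The dim members were therefore also described in a fit of all 19785 features without the floor. In it 2 members were called higher at 5 µM, PCDHB15 and PCDHGA4, and 1 at 10 µM, PCDHB15. This was 3.45% of the 58 members at 5 µM, against 5.7% of all features called higher, and 1.72% at 10 µM, against 3.68%. None was called at 10 µM against 5 µM (limma, 2 with an unadjusted p below 0.05), against 1.03% of all features. Among features that were not tested, 2.8% were called higher at 5 µM and 1.73% at 10 µM, against 3.57% and 1.79% of the 56 members that were not tested. The shares of called members were thus below those of the whole array and close to those of other dim features. Both genes were picked out after their values were seen.

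PCDHB15, a beta gene at chr5:141245395-141249365, had log2 signals of 0.26, 3.14 and 3.38 at 0 µM, 5.63, 5.15 and 5.39 at 5 µM, and 5.50, 4.75 and 5.52 at 10 µM. All 6 treated values were above all 3 vehicle values, but only 1 array at 5 µM and 2 at 10 µM reached the floor, those at 10 µM only just. Without the floor the log2 difference was 3.13 ± 0.78 (SE) at 5 µM (limma, adjusted p = 0.0386) and 3.00 ± 0.78 at 10 µM (limma, adjusted p = 0.0499). These sizes rest on vehicle signals far below the floor. The means of 5.39 at 5 µM and 5.26 at 10 µM also lay below the mean floors of their doses (5.41 and 5.42), so that no fold is given. With each of the 9 arrays left out in turn, the call at 5 µM held for 2 (vehicle replicates 1 and 3) and that at 10 µM for 1 (vehicle replicate 1). The highest adjusted p was 0.118 at 5 µM, without 5 µM replicate 1, and 0.142 at 10 µM, without 10 µM replicate 3 (limma).

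PCDHGA4, a gamma gene at chr5:141355021-141512975, had log2 signals of 3.31, 4.38 and 4.38 at 0 µM, 6.25, 5.41 and 5.78 at 5 µM, and 5.63, 4.68 and 5.03 at 10 µM. The treated values again lay above all vehicle values, with 2 arrays at 5 µM and 1 at 10 µM at or above the floor. Without the floor the log2 difference was 1.79 ± 0.39 (SE) at 5 µM (limma, adjusted p = 0.0249) and 1.09 ± 0.39 at 10 µM (limma, adjusted p = 0.119). Against the vehicle raised to its floor, PCDHGA4 was at least 1.58-fold higher at 5 µM, or at least 1.32-fold after the medians of the arrays were made equal (added after seeing the data), and no bound was reached at 10 µM. The log2 difference between 10 and 5 µM was -0.69 ± 0.39 (limma, adjusted p = 0.38). The call at 5 µM was lost without vehicle replicate 1 (adjusted p = 0.0566), 5 µM replicate 1 (0.0872) or 5 µM replicate 3 (0.0764, limma).

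**Figure D2:**
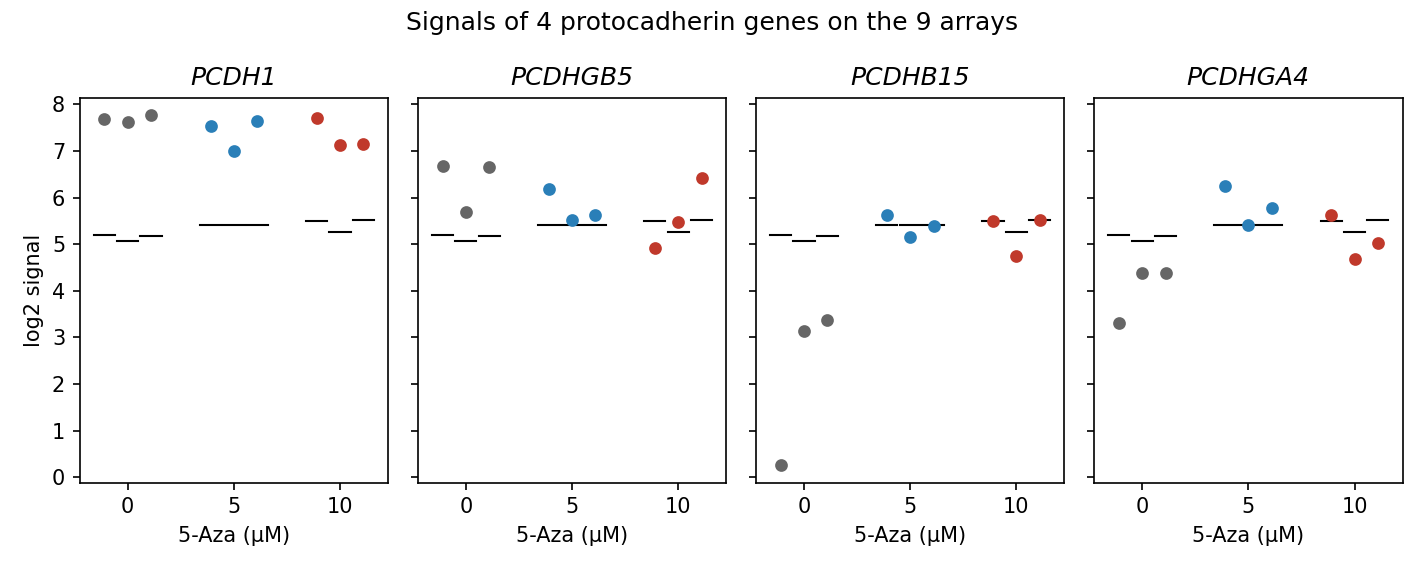
Log2 signals of PCDH1, PCDHGB5, PCDHB15 and PCDHGA4 on the 9 arrays, against the 5-Aza dose in µM. Points are arrays and short bars are the floor (median) of the same array. PCDH1 lies above the floor on 9 arrays and PCDHGB5 on 8, while PCDHB15 and PCDHGA4 lie below it on all vehicle arrays and around it on the treated arrays.

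At 5 µM, 5 members had an unadjusted p below 0.05 without the floor, all higher: PCDHB15 and PCDHGA4, which passed the adjustment, and PCDHGA3, PCDHB2 and PCDH9, which did not. At 10 µM there were also 5, all higher, with PCDH10 in place of PCDH9, and PCDHB15 alone passed. These were 8.62% of members at each dose, against 17.2% of all features at 5 µM and 17.4% at 10 µM. Among features that were not tested the shares were 8.42% and 8.57%, against 8.93% of the members that were not tested at each dose. PCDHGA3 had log2 signals of 3.82, 3.84 and 1.68 at 0 µM, 4.55, 5.01 and 5.06 at 5 µM, and 4.95, 4.29 and 4.84 at 10 µM. PCDHB2 had 1.26, 3.54 and 1.26 at 0 µM, 4.14, 2.98 and 3.45 at 5 µM, and 4.16, 3.98 and 3.68 at 10 µM. PCDHGA3 separated from the vehicle at both doses, and PCDHB2 at 10 µM only. All of these values were below the floor, so that no fold is given. The other probe set of PCDHGA3 averaged 1.32 at 5 µM, 1.58 at 10 µM and 2.52 at 0 µM, the opposite direction. Like that of PCDHGB5, both probe sets of PCDHGA3 carry the suffix _x_at, so neither signal can be assigned to PCDHGA3 alone.

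Among the non-clustered genes, PCDH10, known as a tumour suppressor gene methylated in gut tumours, had log2 signals of 3.02, 3.47 and 2.14 at 0 µM, 1.54, 2.79 and 3.00 at 5 µM, and 3.91, 3.79 and 4.95 at 10 µM. The 10 µM values of this probe set, its brightest, were above all others, yet all 9 were below the floor. The adjusted p was 0.152 at 10 µM against 0 µM and 0.124 at 10 µM against 5 µM (limma). PCDH10 had 3 other probe sets, all below the floor. They averaged 0.38, 0.93 and 0.85, then 1.81, 0.87 and 0.95, and 0.91, 1.53 and 1.30 at 0, 5 and 10 µM. None had its highest mean at 10 µM. PCDH17, another gene known to be methylated in tumours, reached the floor on 1, 0 and 2 arrays at 0, 5 and 10 µM, with means of 4.75, 4.57 and 5.18. Its other probe sets, both below the floor on all arrays, averaged 3.54, 2.75 and 4.15, and 0.71, 2.88 and 0.02, so that they did not share a direction. PCDH9 averaged 1.07, 2.74 and 1.89 with its brightest probe set. Of its 3 other probe sets, all below the floor, 1 averaged 2.41, 0.31 and -0.75, another 0.79, -0.35 and 1.79, and the third 0.62, 1.04 and 1.00, so that they did not share a direction. PCDH8, PCDH15 and PCDH19 were below the floor on all arrays.

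Clustered and non-clustered members had median differences close to each other and to that of all features. At 5 µM against 0 µM the median log2 difference without the floor was -0.05 over 46 clustered and -0.06 over 11 non-clustered features, against 0.07 over all features. At 10 µM against 0 µM it was 0.14 and 0.08, against 0.11. Positive differences were seen in 23 of 46 clustered and 5 of 11 non-clustered features at 5 µM, and in 25 of 46 and 6 of 11 at 10 µM. Within the clusters, the alpha median was -0.55 at 5 µM (3 of 12 positive) and 0.02 at 10 µM, the beta median 0.13 and 0.26, and the gamma median 0.09 and -0.03. The comparison of the classes is a description and was not tested, and most of the signals behind it lie below the floor.

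The 3 arrays of a treated dose lay above all 3 vehicle arrays for 4 members at 5 µM (6.9%), against 22.8% of all features. For 10 µM this held for 6 members (10.3%), against 19.1% of all features. Among features that were not tested, whose vehicle median was 2.96 against 2.57 for the members that were not tested, the shares were 10.9% at 5 µM and 9.67% at 10 µM, against 4 and 6 of the 56 members that were not tested (7.14% and 10.7%). The members lying above the vehicle were PCDHB15, PCDHB3, PCDHGA3 and PCDHGA4 at both doses, and PCDHB2 and PCDH10 at 10 µM only. PCDHB3 had 2 other probe sets, both below the floor on all arrays. They averaged -0.29, -0.44 and 1.84, and 0.46, 0.32 and -1.16, at 0, 5 and 10 µM, so that they did not share a direction. Below all 3 vehicle arrays lay 2 members at 5 µM, PCDHB14 and PCDHGB8P, against 17% of all features, and 1 at 10 µM, PCDHA9, against 12.5%. These 3 members were among the 56 not tested. Of the 8027 features that were not tested, 376 lay below the vehicle at 5 µM and 253 at 10 µM. The 2 doses share the vehicle arrays.

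**Figure D3:**
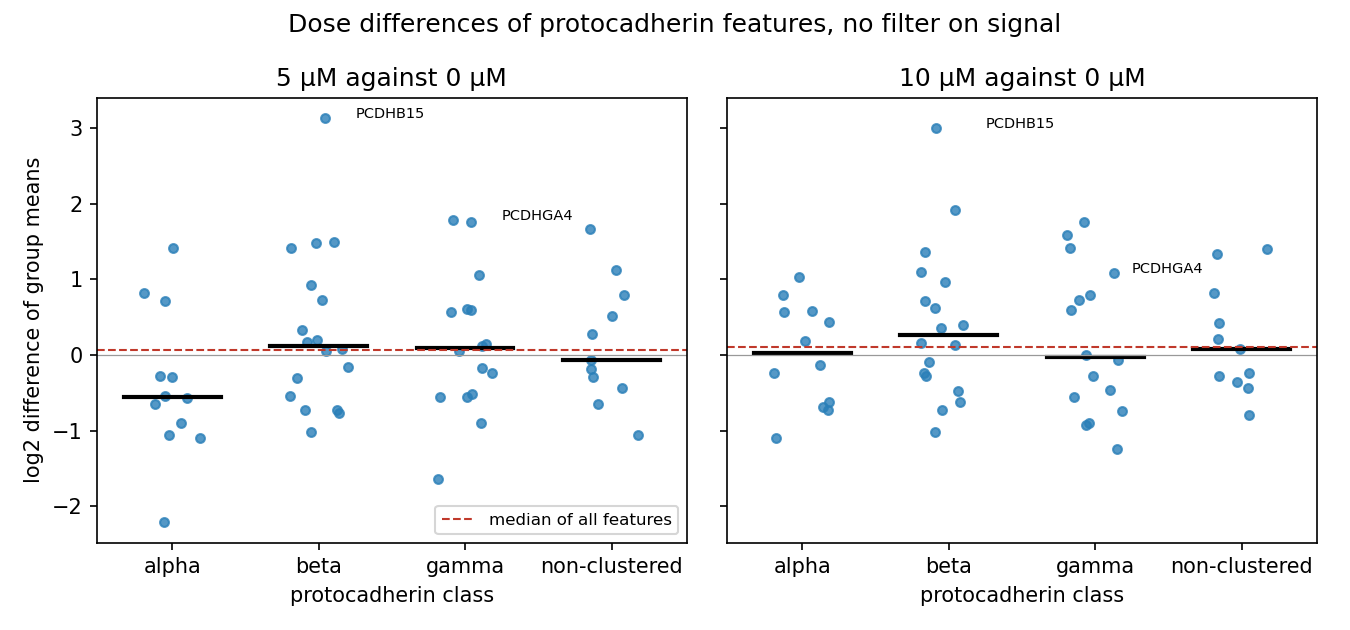
Log2 difference of group means for each protocadherin feature without the floor, at 5 µM against 0 µM (left) and 10 µM against 0 µM (right). Points are features, black bars are class medians and the dashed line is the median of all features (0.07 and 0.11). The classes scatter about the dashed line, with PCDHB15 highest at both doses (3.13 and 3.00).

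Genes that act on the protocadherin clusters were mostly well above the floor. Of 25 genes for CTCF, cohesin, DNA methylation and related silencing factors, 24 were tested, and 2 were called higher at each dose, while 8.6% of all tested features were called higher at 5 µM and 6.09% at 10 µM. UHRF1, which guides the maintenance methyltransferase, averaged 9.35 ± 0.04 at 5 µM, 9.45 ± 0.04 at 10 µM and 8.03 ± 0.08 at 0 µM (log2, SD, n = 3), with a log2 difference of 1.31 ± 0.09 (SE, limma adjusted p = 1.94e-05) at 5 µM. DNMT3B, a de novo methyltransferase, was higher by 1.18 ± 0.21 at 5 µM (limma adjusted p = 0.00357) and by 1.05 ± 0.21 at 10 µM (0.00719). CTCF and the cohesin subunits were not called. The median difference of the list was -0.03 at 5 µM and 0.07 at 10 µM, against 0.04 and 0.05 over all tested features.

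Of 22 genes for known partners of protocadherins, such as the WAVE complex and gamma-secretase, 20 were tested and 0 were called in any comparison. Of all tested features, 9.92% were called at 5 µM against 0 µM, 7.59% at 10 µM against 0 µM and 2.35% between the doses. With limma, 8 of the partner genes had an unadjusted p below 0.05 at 5 µM, 7 at 10 µM and 2 between the doses. Of these, 2, 1 and 1 were higher. The lowest adjusted p (limma) was 0.00359, 0.0114 and 0.0433, which passed 0.05 without a difference of more than 2-fold. The methods' t-test called 0, and the SAM statistic called 1 at 5 µM. The genes beside the clusters on chromosome 5 differed from the family in level, with 21 of 23 tested (91.3%). They too had 0 calls with limma, the methods' t-test or SAM. With limma, 6, 7 and 6 had an unadjusted p below 0.05 in the 3 comparisons, of which 5, 6 and 3 were higher. Their lowest adjusted p (limma) was 0.0414, 0.0133 and 0.0282, again without a difference of more than 2-fold.

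Cadherins outside the family were tested in 15 of 44 cases (34.1%), and 3 were called higher at 5 µM and 1 at 10 µM, against the same 8.6% and 6.09% of all tested features. CELSR2, a planar polarity cadherin, averaged 6.99 ± 0.15 at 5 µM, against 5.95 ± 0.13 at 0 µM (SD, n = 3), a log2 difference of 1.04 ± 0.14 (SE, limma adjusted p = 0.000767). CDHR2, a cadherin of the microvillus tip, was higher by 1.68 ± 0.34 at 5 µM (limma adjusted p = 0.00562), and its partner CDHR5 by 1.07 ± 0.24 at 10 µM (0.0113). CDH15, a cadherin of muscle, was below the floor on all arrays at 0 and 10 µM. It was at least 1.71-fold higher at 5 µM than in the vehicle (limma adjusted p = 0.00663), a bound not corrected for the higher floor at 5 µM. CDH15 entered the test only through the 5 µM arrays, where it was high, so its call depends on that selection.

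Measures of the whole arrays and of marker genes differed between the doses as well. For the actin control, the log2 signal of the 3′ probe set less that of the 5′ one, a measure that grows as RNA is degraded, was 2.09 ± 0.19, 2.59 ± 0.10 and 2.98 ± 0.17 at 0, 5 and 10 µM (SD, n = 3), and that of GAPDH was 0.19 ± 0.06, 0.32 ± 0.02 and 0.57 ± 0.11. Of the 12 colon epithelial markers, 10 were tested. Signals of all 12, tested or not, were summed unlogged and then logged, so that the brightest genes weigh most. This sum was 16.05 to 16.22 at 5 µM, 15.92 to 16.11 at 10 µM and 16.56 to 16.62 at 0 µM (log2). Among the tested ones CEACAM5 was called higher at 5 µM, by 1.67 ± 0.13 (SE, limma adjusted p = 3.99e-05), and KRT19 and GPA33 lower, while KRT8 and KRT19 were called lower at 10 µM. GPA33 entered the test only through the vehicle arrays, where it was highest. Of all 11758 tested features, 1011 (8.6%) were called higher and 155 lower at 5 µM. At 10 µM it was 716 (6.09%) and 176. Of 15 neuronal markers, 6 were tested and 4 were called higher at 5 µM, and 3 at 10 µM, against these 8.6% and 6.09%. The same sum over all 15 neuronal markers was 11.40 to 11.48 at 5 µM, 10.78 to 11.11 at 10 µM and 10.49 to 10.83 at 0 µM. The 10 µM arrays and the vehicle thus overlapped. At 10 µM against 5 µM, 2 neuronal markers were called lower, the same SYT1 and UCHL1, against 245 of the 11758 tested features. Of 11 fibroblast and endothelial markers, 3 were tested, and 2 were called higher at 5 µM and 1 at 10 µM, against the same 8.6% and 6.09%. The sum over all 11 was 10.17 to 10.29 at 5 µM, 9.47 to 9.76 at 10 µM and 8.57 to 8.94 at 0 µM. The part of these measures in the protocadherin values was not tested.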

How the data were processed

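One array was run for every culture of HT-29 cells, with 3 cultures per dose (0, 5 and 10 µM 5-Aza). The deposited values are log2 signals of 54675 probe sets. The submitters' processing notes name RMA and affy 1.14.2. The deposited values, however, have the form of MAS 5.0 signals: unlogged they are multiples of 0.1, each array was scaled to 250.0 as its 2% trimmed mean, and the lowest log2 value was -3.32. Differences between dim signals are therefore large and noisy. After 6 probe sets with missing values were dropped, gene names came from the platform's table, updated through RefSeq (GRCh38.p14). It gave 1 gene for 41092 probe sets, several for 1800 and no gene for 11721, besides 62 controls.

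For each of 19775 genes the brightest probe set (mean of 9 arrays) was used, and the 10 protocadherin cluster probe sets were added as features. Tests were two-sided, by lmFit and eBayes of limma 3.58.1 (R 4.3.3), with 1 mean per dose and all 9 arrays in the model, and Benjamini-Hochberg adjustment over all features fitted. The methods' t-test is Student's test per feature. An "at least" fold compared the mean of a dose with that of a dose below the floor on all 3 arrays, each of whose values was raised to its array's floor. Members called under the design were to be named with all values. As none was, the tested members and those called or with an unadjusted p below 0.05 without the floor were named, with called members of the lists. The members, gene lists and alternatives were chosen with earlier results of these data known. The alternatives were other filters, probe set rules, tests, normalizations, an actin covariate, a replicate block and leaving out each array. The code was tested on simulated data. Promoters were RefSeq windows, read with Python 3.11.15. Figures were drawn with matplotlib 3.10.9.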

Additional observations from a re-analysis of the deposited data

How the results depend on the processing

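With the floor, the count of protocadherins called in either direction in each of the 3 comparisons was 0 under all alternatives, the replicate block included, except where the floor was dropped (2 higher at 5 µM, 1 at 10 µM) or 1 array was left out. Leaving out single arrays gave 0 to 1 higher at 5 µM and 0 to 1 at 10 µM: without 10 µM replicate 2, PCDHB15 entered the test and was called at both doses, and without 5 µM replicate 2, PCDHGA4 was called at 5 µM. In each case the array left out was a treated array on which the gene lay below the floor. Each gene then entered the test only through a treated dose, where it was high, so these calls depend on that selection and are not support for a rise. Same-numbered arrays of different doses correlated between -0.089 and 0.179 in their deviations, and differently numbered ones between -0.248 and 0.225. With few arrays per dose, these values cannot decide whether the replicate numbers pair the cultures.

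Alternatives to the fit without the floor were chosen after seeing the data. The replicate block, the methods' t-test and signals raised to the floor each gave 0 members higher at 5 µM and 0 at 10 µM, against 2 and 1. Under the block and the t-test the log2 differences at 5 µM stayed at 3.13 (PCDHB15) and 1.79 (PCDHGA4), and the adjusted p did not pass. With raised signals it did (PCDHB15 0.0288 at 5 µM and 0.0385 at 10 µM, PCDHGA4 0.0272 at 5 µM), but the differences were under 2-fold and the floor itself was higher on treated arrays. A trend with robust eBayes, and array weights, kept all of these calls. Quantile normalization kept PCDHGA4 only, and equal array medians kept both genes at 5 µM and gave 0 at 10 µM. With the actin covariate PCDH10-DT was called in place of both genes, and PCDHB15 had a log2 difference of -0.45 at 10 µM against 0 µM (adjusted p = 0.99), the only change of sign for PCDHB15 and PCDHGA4 at either dose against 0 µM. Leaving out single arrays gave adjusted p from 0.00903 to 0.118 for PCDHB15 and from 0.0258 to 0.0872 for PCDHGA4 at 5 µM against 0 µM. The cause of these changes was not tested, except that raising signals to the floor removes differences below it.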
